A study of Mus musculus with 11 samples.

Results

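Meningeal fibroblast and collagen genes, which build the connective tissue around the brain and spinal cord, were followed through 11 bulk RNA-seq libraries of mouse nervous tissue: the collagen chains Col1a1, Col1a2 and Col3a1, the fibril-binding proteins Dcn, Lum, Ogn and Dpt, the lubricant Prg4 and the growth factor Igf2. They are 9 of the 22609 genes in the count table, and all 9 were among the 17557 genes with at least 10 counts over the 11 libraries. The genes were chosen from levels measured in these same libraries, so their levels and differences are given as descriptions, with no test.

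The study compared mice in which neurofascin (Nfasc), ankyrin-G (Ank3) or both were targeted in Purkinje cells with littermate controls, in polyA RNA from what the labels call cerebellar hemisphere. There were 3 control libraries, 3 of the Nfasc knockout (NFKO), 2 of the Ank3 knockout (AnkGKO) and 3 of the double knockout (DKO), all untreated, of mixed sex and given as batch 1. The study's methods describe the controls as carrying single or double floxed alleles of Nfasc and AnkG and no Cre, whereas its results section writes them with Pcp2-Cre, and the labels say only Control. The mutants carried Pcp2-Cre, whose Cre is made chiefly in Purkinje cells, together with the floxed Nfasc allele, the floxed AnkG allele or both. The mice were on a mixed C57BL/6J;129 background, and their age was given as postnatal day 30 in the sample descriptions and 32 in the growth protocol. Replicate libraries were labelled as biological replicates, and what else a replicate number stands for was not stated.

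Total gene counts ran from 38890851 to 55822361 per library, so that 3 counts, used as the detection floor, equalled 0.0546 to 0.0780 CPM, the library-scaled count used throughout (TMM-normalized). Ank3 was 353 to 375 CPM in control and 385 to 407 CPM in NFKO libraries, against 156 to 200 CPM in AnkGKO and 160 to 185 CPM in DKO libraries, with log2 fold changes from control of -1.03 ± 0.10 (SE, edgeR adjusted p = 0.00108) and -1.07 ± 0.09 (adjusted p = 0.000461). Nfasc did not separate the libraries labelled NFKO (622 to 701 CPM) from control (661 to 718 CPM), so its level does not check that label. The cerebellar markers Pcp2 and Gabra6 were low or absent in most libraries. The Purkinje gene Pcp2 was 26.3 CPM in control 1, 28.3 CPM in NFKO 1 and at most 2.14 CPM in the other 9. The granule cell gene Gabra6 was 84.2 and 59.0 CPM in the same 2 libraries and at most 4.41 CPM elsewhere. Not all such markers were absent. The summed level of 8 Purkinje and granule cell genes was 1006 CPM in control 1 and 977 CPM in NFKO 1. That sum was lower in every other library, at 166 to 210 CPM in AnkGKO and 196 to 215 CPM in DKO libraries. Its 3 highest genes per kilobase, Pvalb, Cbln1 and Calb1, had means of 116, 57.7 and 60.2 CPM over the 11 libraries. Hoxb8, a gene of caudal body levels, was 167 to 265 CPM in every library. The female transcript Xist was 464 and 598 CPM in control 1 and control 2, 28.4, 459 and 469 CPM in the DKO libraries, and at most 1.39 CPM in control 3 and all NFKO and AnkGKO libraries. The part of tissue content or sex in the results below was not tested.

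The meninges are the membranes around the brain and spinal cord, with the tough dura outside and the arachnoid and pia beneath it. Their fibroblasts secrete collagen, which assembles outside the cell into fibrils, and small proteoglycans that bind the fibrils and set their width and spacing. They also make Igf2, an imprinted growth factor that in the adult brain comes mainly from the meninges and the choroid plexus. Collagen chains are built on a repeat of glycine and 2 further residues, which lets 3 chains wind around each other, and the repeat can be read directly in the gene.

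In the coding sequence of each collagen chain (GENCODE vM39 canonical transcripts, build GRCm39), the longest unbroken run of triplets that begin with a GGN codon, the codon for glycine, was 338 triplets in Col1a1, 339 in Col1a2 and 344 in Col3a1. That run held 69.8%, 74.1% and 70.5% of the coding bases. Of the exons that lay wholly inside it, 21 of 41 in Col1a1, 23 of 42 in Col1a2 and 24 of 42 in Col3a1 were exactly 54 bases long. The first such exon of each gene is shown because it displays the unit these 3 genes share: exon 8 of Col1a1 (chr11:94830730-94830783, plus strand), exon 8 of Col1a2 (chr6:4515481-4515534, plus strand) and exon 6 of Col3a1 (chr1:45364520-45364573, plus strand). Capitals mark the 6 glycine codons, each 9 bases after the last.
Col1a1: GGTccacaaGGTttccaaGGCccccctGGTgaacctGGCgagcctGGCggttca
Col1a2: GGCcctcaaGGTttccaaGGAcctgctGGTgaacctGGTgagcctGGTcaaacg
Col3a1: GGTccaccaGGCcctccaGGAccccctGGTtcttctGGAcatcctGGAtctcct

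The 9 genes lie on 6 chromosomes (GRCm39). Dcn (chr10:97315275-97358155) and Lum (chr10:97400990-97408577) are neighbours on the plus strand, 27.5 Mb from Ank3. Prg4 (chr1:150325163-150342009, minus strand), Dpt (chr1:164624187-164654544, plus) and Col3a1 (chr1:45350698-45395840, plus) share a chromosome with Nfasc, at 17.7, 32 and 87.1 Mb from it. Col1a1 is at chr11:94827050-94843868 (plus), Col1a2 at chr6:4504814-4541555 (plus), Ogn at chr13:49761349-49780412 (plus) and Igf2 at chr7:142204503-142220694 (minus). Part of the exon bases of 3 members also belongs to a counted gene on the opposite strand, namely Cenpp for Ogn (18.8% of its exon bases), Tpr for Prg4 (7.99%) and Igf2os for Igf2 (4.12%). Igf2 also shares 58.4% of its exon bases with Gm49394 on the same strand, a gene with no row in the table used here. The libraries were made with a strand-specific kit, but whether the counting used strand was not stated, and these levels carry that uncertainty.

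Because the levels of the 9 genes varied together, their promoters were compared. The RefSeq promoter table (build GRCm38.p6) held 5 of the 9, and Col1a1, Prg4, Dcn and Lum had no entry. Igf2 had 4 starts, and the 4 genes with a single start are printed as the 150 bases before it: Col1a2 (chr6:4505468-4505617), Col3a1 (chr1:45311388-45311537), Ogn (chr13:49607865-49608014) and Dpt (chr1:164796513-164796662), all on the plus strand. Capitals mark any match, on either strand, to the CCAAT box (CCAAT), the GC box (GGGCGG) or the TATA box (TATAAA), letters that do not overlap one another.
Col1a2: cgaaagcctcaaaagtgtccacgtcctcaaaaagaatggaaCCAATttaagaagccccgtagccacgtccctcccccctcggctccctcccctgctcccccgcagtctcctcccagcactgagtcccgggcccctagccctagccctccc
Col3a1: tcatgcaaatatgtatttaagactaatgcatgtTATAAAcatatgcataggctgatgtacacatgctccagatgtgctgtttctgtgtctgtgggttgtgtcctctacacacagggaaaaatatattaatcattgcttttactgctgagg
Ogn: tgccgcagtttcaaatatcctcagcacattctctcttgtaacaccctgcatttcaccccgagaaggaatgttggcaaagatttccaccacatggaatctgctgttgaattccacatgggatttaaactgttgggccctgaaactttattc
Dpt: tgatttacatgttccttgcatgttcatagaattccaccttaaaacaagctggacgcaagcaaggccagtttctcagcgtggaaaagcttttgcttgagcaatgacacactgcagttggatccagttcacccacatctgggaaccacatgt

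Col1a2 held a CCAAT box 109 bases before its start, and Col3a1 held a TATA box 117 bases before its start. None of the letters searched was in the windows of Ogn and Dpt. Over all 32817 promoter windows of that length, 24.5% held a CCAAT box, 28.6% a GC box and 7.58% a TATA box. The GC box was matched in 2 of the 4 Igf2 windows, with 3 matches, and in none of the printed windows. GC content was 62.7% in Col1a2, 37.3% in Col3a1, 44.0% in Ogn, 45.3% in Dpt and 52.0 to 68.0% in the Igf2 windows.

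Col1a1, the chain that makes up most of type I collagen, was 12.7, 38.8 and 22.9 CPM in control libraries 1 to 3. In the NFKO libraries it was 37.8, 368 and 47.3 CPM, in AnkGKO 29.9 and 12.2 CPM, and in DKO 13.5, 70.1 and 8.17 CPM. NFKO 2 stood far above every other library, at 5.25 times the next, and without it NFKO overlapped control and DKO but not AnkGKO. Bulk RNA cannot tell fewer cells of a type from less RNA per cell, which holds for each level given here.

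Its partner chain Col1a2 was 48.7, 95.1 and 65.6 CPM in control, against 86.3, 407 and 106 CPM in NFKO libraries. It was 88.8 and 53.0 CPM in AnkGKO and 53.8, 126 and 36.8 CPM in DKO libraries. NFKO 2 again stood apart, at 3.23 times the next library, DKO 2. Col3a1, the type III chain of stretchable tissue, was 8.68, 49.3 and 23.8 CPM in control, 37.5, 122 and 40.4 CPM in NFKO, 29.0 and 7.30 CPM in AnkGKO, and 17.3, 69.4 and 6.17 CPM in DKO libraries. The library order was much the same as for type I chains, with a smaller gap of 1.76 times between NFKO 2 and DKO 2.

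Decorin (Dcn), a small leucine-rich proteoglycan that binds collagen fibrils, was 24.5, 63.6 and 45.1 CPM in control, against 60.1, 142 and 74.6 CPM in NFKO libraries. In AnkGKO it was 46.8 and 17.7 CPM, and in DKO 32.8, 59.2 and 18.2 CPM. It varied least of the 9, with 8.02-fold between the highest and the lowest library. Lumican (Lum), its neighbour and relative that regulates fibril width, was 2.65, 7.21 and 5.45 CPM in control, 6.77, 19.9 and 8.44 CPM in NFKO, 4.68 and 2.24 CPM in AnkGKO, and 2.19, 8.43 and 1.71 CPM in DKO libraries. For both genes NFKO 1 lay just below control 2, so that NFKO and control overlapped.

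Osteoglycin (Ogn), a further leucine-rich proteoglycan, was 3.82, 24.6 and 19.1 CPM in control, against 40.4, 68.1 and 44.8 CPM in NFKO libraries. It was 25.3 and 3.93 CPM in AnkGKO and 20.6, 14.6 and 2.75 CPM in DKO libraries. The 3 NFKO libraries were above the 8 others, and control 1, AnkGKO 2 and DKO 3 formed a low set. Dermatopontin (Dpt), which binds decorin, was 1.04, 5.74 and 4.95 CPM in control, 5.76, 12.2 and 6.35 CPM in NFKO, 2.97 and 0.673 CPM in AnkGKO, and 3.99, 5.09 and 1.00 CPM in DKO libraries. The same 3 libraries were lowest, and NFKO 1 exceeded control 2 by only 0.02 CPM.

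Prg4 encodes lubricin, a mucin-like glycoprotein best known from joint surfaces. It was 0.468, 21.3 and 12.3 CPM in control, 22.9, 36.6 and 24.5 CPM in NFKO, 25.8 and 2.74 CPM in AnkGKO, and 12.3, 11 and 0.182 CPM in DKO libraries. The values in control 1 and DKO 3 rested on 18 and 10 counts, against 1902 in NFKO 2, and the spread of 201-fold was the widest among the 9 genes. One AnkGKO library reached the NFKO level and the other did not.

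Igf2 was 45.8, 173 and 107 CPM in control, against 255, 460 and 281 CPM in NFKO libraries. It was 181 and 57.4 CPM in AnkGKO and 105, 60.7 and 30.3 CPM in DKO libraries. Every NFKO library exceeded every other library, while DKO 2, the second highest library for all 3 collagen chains, was below the median library for Igf2.

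**Figure D1:**
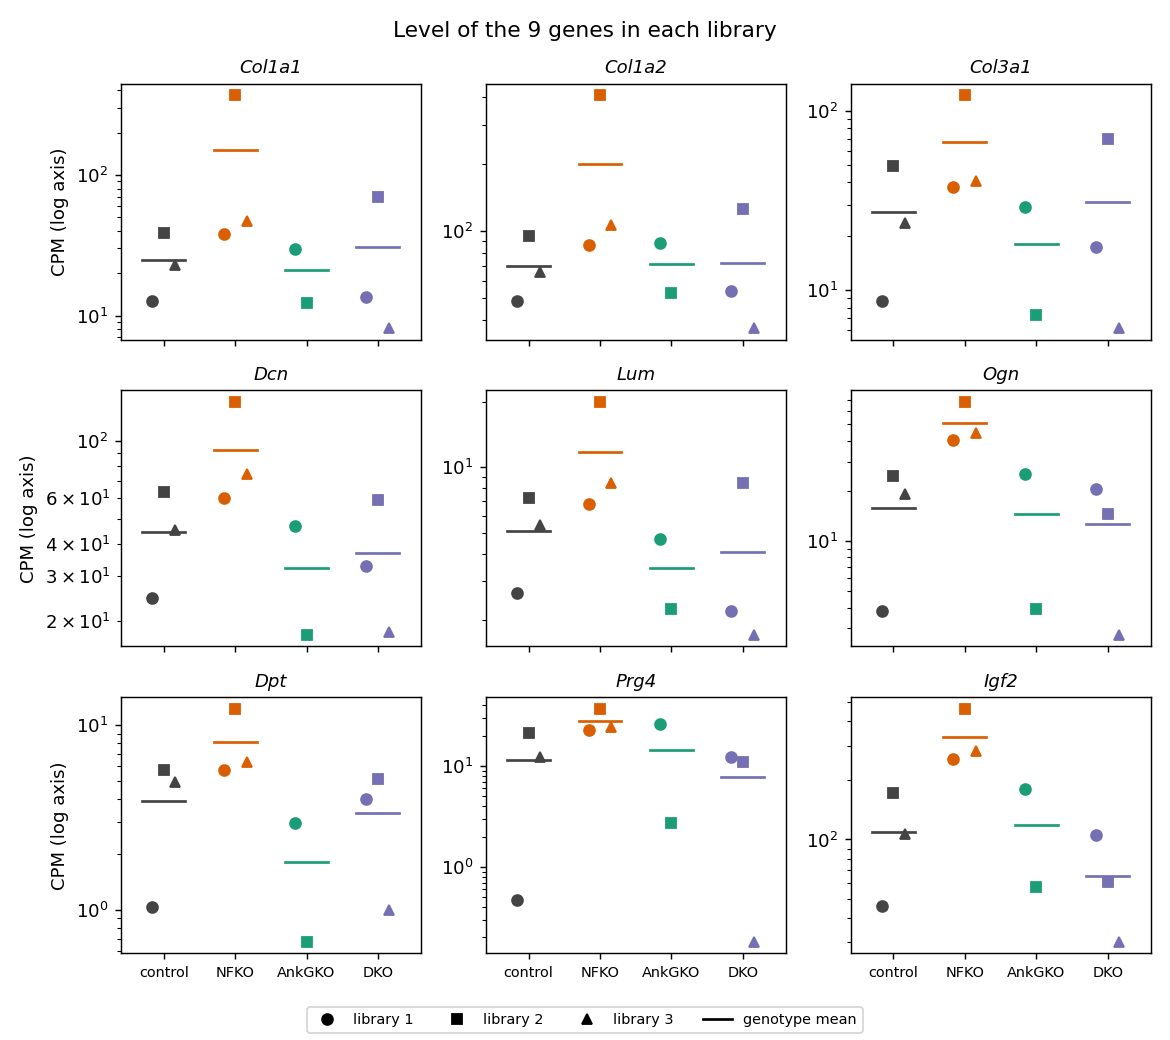
Level of each of the 9 genes (TMM-normalized CPM, log axis) in the 11 libraries by genotype. Points are libraries, their shape gives the replicate number, and horizontal bars are genotype means. NFKO 2 is the highest point in all 9 panels, and the control, AnkGKO and DKO libraries overlap in each.

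Set per kilobase of the canonical transcript, which allows genes to be compared, Igf2 had the highest median level over the 11 libraries at 28.8 CPM per kb. Col1a2 followed at 16.1 and Dcn at 7.67 CPM per kb, and each of these steps held in at least 10 of 11 libraries. Col3a1 at 5.22 and Col1a1 at 5.05 CPM per kb had no clear order, since Col3a1 was the higher in 6 of 11 libraries. Ogn at 3.98, Prg4 at 2.82 and Lum at 2.22 CPM per kb came next, with Ogn above Prg4 in 9 libraries and Prg4 above Lum in 7. Dpt was lowest at 1.11 CPM per kb, under Lum in 10 of 11 libraries.

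Libraries of a single genotype differed more for these genes than for most others. The SD of log2 CPM within genotypes was 0.777 for Dcn, 1.41 for Col1a1 and 2.51 for Prg4, with a median of 1.17 over the 9 genes against 0.125 over the 13910 genes with a mean of at least 1 CPM. Ranked from the most variable, the 9 genes took places 26 (Prg4) to 230 (Dcn). NFKO 2 was the highest library for all 9 genes, DKO 3 the lowest for 7, and AnkGKO 2 the lowest for Dcn and Dpt. Genotype accounted for 64.9% of the variance of log2 CPM for Igf2 and 26.9% for Prg4, with a median of 34.0% over the genes with a mean of at least 1 CPM.

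**Figure D2:**
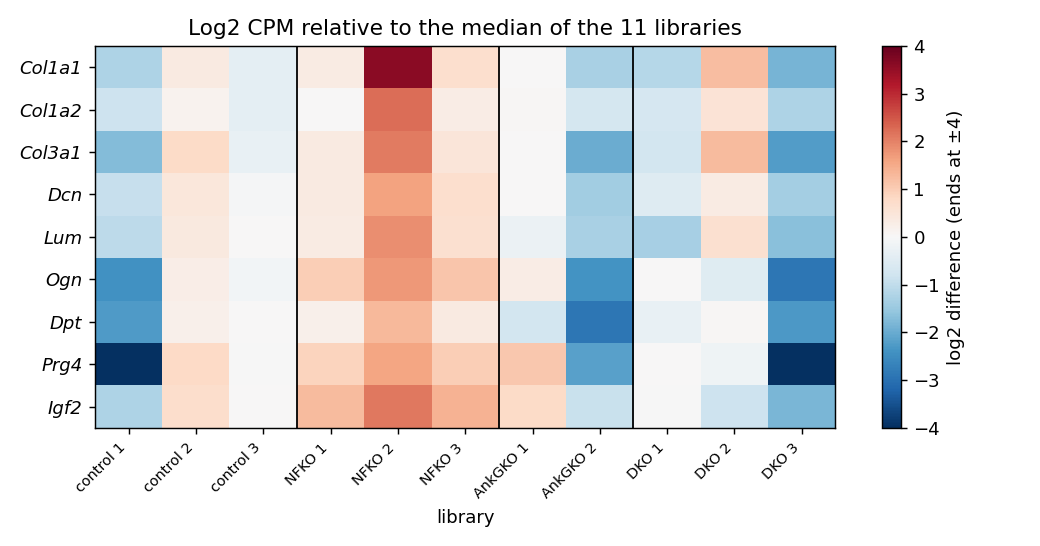
Log2 CPM of each gene in each library relative to that gene's median over the 11 libraries, with red above and blue below, the colour scale ending at 4 in either direction. The column of NFKO 2 is red throughout, and those of control 1, AnkGKO 2 and DKO 3 are blue throughout.

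The levels of the 9 genes varied together across libraries. Over 36 pairs, Pearson's r of log2 CPM ran from 0.695 to 0.994 with a median of 0.872 (n = 11 libraries, no test). The libraries differed in tissue content and depth, which all genes of a library share. The closest pair was Col1a1 and Col1a2, which together form type I collagen (r = 0.994, and 0.989 without NFKO 2), and the neighbours Dcn and Lum had r = 0.967. The loosest was Col1a2 with Prg4 (r = 0.695).

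Col1a1 parted from Igf2 in 2 libraries. The ratio of Col1a1 to Igf2, per kilobase, was 0.0803 to 0.174 in 9 libraries but 0.500 in NFKO 2 and 0.721 in DKO 2. Col1a1 over Col1a2 was also highest in these 2, at 0.818 and 0.504 against 0.201 to 0.403 elsewhere. Col1a2 parted from Igf2 in DKO 2 alone: Igf2 over Col1a2 was 0.698 there, and 1.64 in NFKO 2 lay among the other 9 libraries (1.19 to 4.27). The summed level of 9 skeletal muscle genes (Acta1, Ckm, Mylpf, Tnnt3, Tnnc2, Myh4, Myh1, Myh2 and Mb) was 439 CPM in NFKO 2 and 180 CPM in DKO 2, against 2.02 to 71.9 CPM in the other 9 libraries. At most 1 of the 9 muscle genes was at 0 in any library. The part of muscle or of connective tissue attached to it in the collagen levels was not tested.

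**Figure D3:**
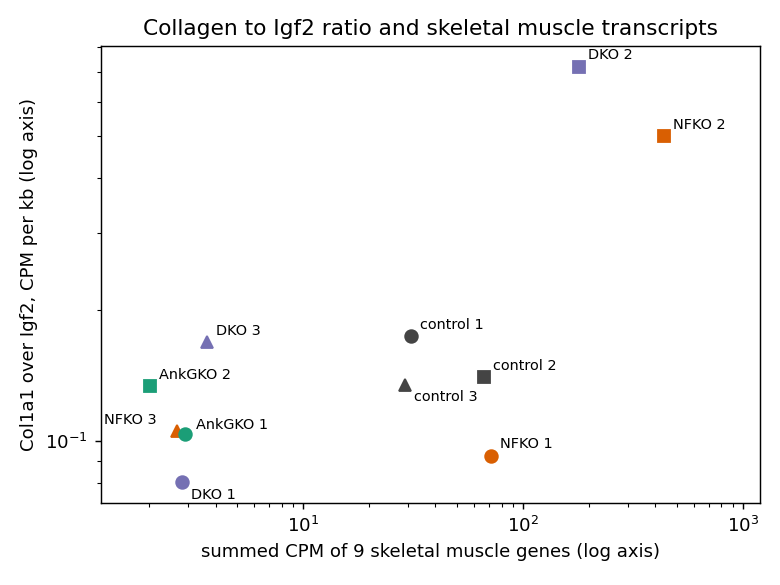
Ratio of Col1a1 to Igf2 (CPM per kb, log axis) against the summed CPM of 9 skeletal muscle genes (log axis), with 1 point per library. NFKO 2 (439 CPM, ratio 0.500) and DKO 2 (180 CPM, ratio 0.721) lie apart from the other 9 libraries, whose ratios are 0.0803 to 0.174.

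The comparison of NFKO with control was made to ask what targeting Nfasc changes, although the Nfasc level itself did not separate these libraries. All 9 estimates were above 0, with a median log2 fold change of 1.29 against -0.0050 over all genes tested. They were 2.60 ± 1.21 (SE) for Col1a1, 1.51 ± 0.73 for Col1a2 and 1.28 ± 1.07 for Col3a1 among the collagen chains. Among the fibril-binding proteins they were 1.05 ± 0.61 for Dcn, 1.19 ± 0.72 for Lum, 1.68 ± 0.97 for Ogn and 1.05 ± 0.81 for Dpt. Prg4 had 1.29 ± 1.42 and Igf2 1.61 ± 0.68, a 3.06-fold difference. NFKO lay wholly above control for 4 of the 9 genes (Ogn, Prg4, Igf2 and Dpt), an order found in 7.42% of all genes. Without NFKO 2 the median fell to 0.62, with 0.77 for Col1a1, 0.46 for Col1a2, 1.42 for Ogn and 1.30 for Igf2. Control 3 is the sole control with low Xist, as in all NFKO libraries, and with Xist as a covariate the median was 1.35.

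AnkGKO and DKO libraries overlapped the control range. Against control, the median log2 fold change was -0.24 in AnkGKO (3 genes above 0, 6 below), from -1.10 ± 0.96 for Dpt to 0.32 ± 1.57 for Prg4. In DKO it was -0.28 (3 above, 6 below), from -0.73 ± 0.68 for Igf2 to 0.29 ± 1.17 for Col1a1. Leaving out AnkGKO 1 moved the AnkGKO median to -1.33 and leaving out AnkGKO 2 moved it to 0.27, while the DKO median was -0.81 without DKO 2 and 0.15 without DKO 3. The split of signs was not stable either: with the replicate block no gene was above 0 in AnkGKO or DKO, and without control 2 there were 6 and 8 above 0. These 3 comparisons share the control libraries.

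**Figure D4:**
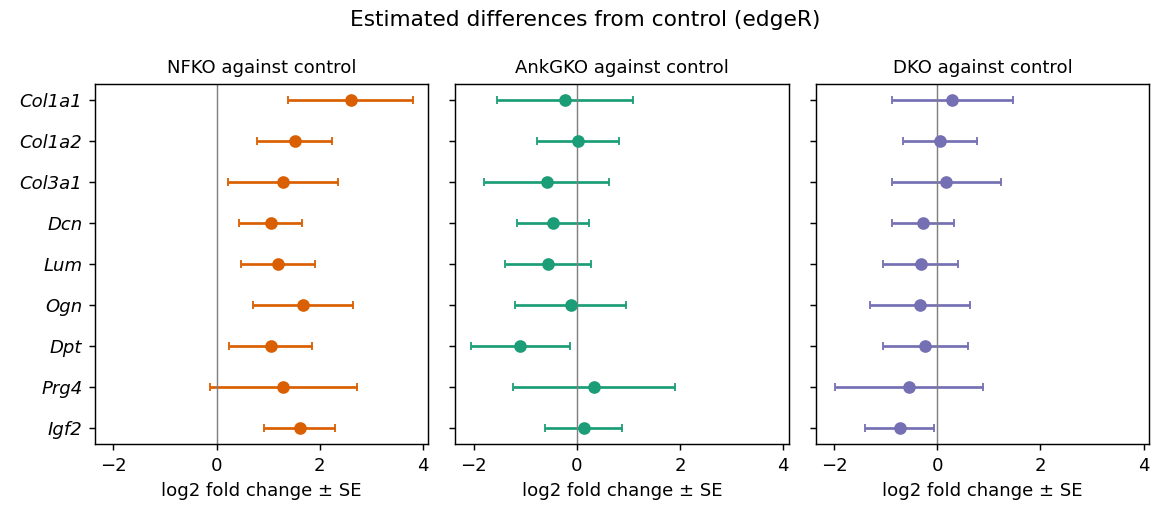
Log2 fold change from control for each of the 9 genes, with edgeR standard errors as bars, in NFKO, AnkGKO and DKO. All 9 NFKO points are above 0, and the AnkGKO and DKO points scatter around 0 with bars that cross it for all but Dpt in AnkGKO and Igf2 in DKO.

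Between mutants, the estimates were higher in NFKO than in either other genotype. DKO minus NFKO estimates were below 0 for all 9 genes, with a median of -1.51, from -1.11 ± 1.06 for Col3a1 to -2.34 ± 0.70 for Igf2. NFKO minus AnkGKO had a median of 1.75, with 7 of 9 genes (all but Col1a2 and Prg4) wholly above AnkGKO, against 12.1% of all genes. DKO minus AnkGKO had a median of 0.18, with 6 genes above 0 and 3 below. That median was -0.65 without DKO 2 and 1.32 without AnkGKO 1. The interaction term, the effect of the Nfasc deletion with Ank3 deleted minus that with Ank3 intact, was below 0 for all 9 genes, with a median of -1.49 that became -0.0044 without AnkGKO 1 and -0.41 without NFKO 2. Its widest standard error was 2.12, for Prg4, and over all genes 0.53% passed the test of this term.

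To place the 9 genes in their pathway, 277 further genes in 21 lists of matrix, signalling and cell type genes were read from the same table, of which 262 were tested. In NFKO against control no list gene passed edgeR's quasi-likelihood test (adjusted p under 0.05, log2 fold change of 0.6 or more in size), beside 0.365% of all genes. At an unadjusted p under 0.05 there were 39 list genes (14.9%, against 7.69% of all genes). The lists were written with earlier results of these data known, so the shares of list genes are descriptions. DESeq2 called 6 (0.945% of all genes called): higher Alas2, Dpp4, Igfbp2, Lama4 and Loxl1, and lower Smad2. In AnkGKO edgeR likewise called none (0.165% of all genes), 13 had an unadjusted p under 0.05 (4.96%, against 5.39% of all genes), and DESeq2 called 2, Gabra6 and Rgs5 (0.582% of all genes). In DKO edgeR called none (0.0228% of all genes), 16 had an unadjusted p under 0.05 (6.11%, against 7.77% of all genes), and DESeq2 called 1, Igfbp2 (0.272% of all genes).

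The nearest relatives of the members leaned the same way as they did in NFKO without passing. Of 10 other small leucine-rich proteoglycans tested, all had NFKO estimates above 0 (median 0.76). Only 8 of them had a mean of at least 1 CPM, and Kera (mean 0.109 CPM) and Podnl1 (0.0742 CPM) were near the floor. Fibromodulin (Fmod), which also binds collagen fibrils, had a mean of 25.3 ± 9.98 CPM in control libraries against 60.0 ± 16.6 CPM in those of NFKO (SD, n = 3 each). Its log2 fold change was 1.24 ± 0.56 (SE, edgeR adjusted p = 0.683). Biglycan (Bgn) was 40.2 ± 10.2 and 66.6 ± 23.3 CPM, and Prelp 41.3 ± 6.30 and 55.2 ± 12.9 CPM. The 18 other fibrillar and fibril-associated collagens had a median of 0.42 with 14 estimates above 0, but the 3 with the highest levels per kilobase hardly differed, with log2 fold changes of 0.06 for Col11a2, -0.14 for Col16a1 and 0.01 for Col11a1.

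Basement membrane genes, which form the sheet under the pia and around vessels, had estimates above 0 in NFKO for all 18 (median 0.32), as with Nid1 (0.18 ± 0.17), Lamb2 (0.26 ± 0.15) and Col4a2 (0.25 ± 0.12). In DKO 1 of the 18 was above 0 (median -0.26). The 23 collagen processing genes had a median of 0.13, and the chaperones and hydroxylases P4hb, Ppib and Plod1, at work on many secreted proteins, had 0.13, 0.07 and 0.30. Among 11 insulin-like growth factor genes the median was 0.78, and the binding protein Igfbp2 was 42.0 ± 7.14 CPM in control, 79.4 ± 20.7 in NFKO, 35.3 ± 5.26 in AnkGKO (n = 2) and 20.5 ± 5.20 in DKO.

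Markers of meningeal fibroblasts other than the 9 genes had NFKO estimates above 0 for 25 of 26 genes, the exception being S100a6 (-0.15 ± 0.32). Their median was 0.88, and Mgp, an inhibitor of calcification, averaged 21.2 ± 15.2 CPM in the controls against 42.9 ± 14.1 CPM in NFKO. In DKO 3 of the 26 were above 0, with a median of -0.46. Gjb6, a gap junction gene also made by astrocytes, averaged 118 ± 5.66 CPM in the controls against 134 ± 23.2 CPM in NFKO. The summed level of the 26 genes was 285 to 491 CPM in control, 448 to 690 in NFKO, 329 to 492 in AnkGKO and 270 to 395 in DKO libraries.

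Some markers of other cell types at the tissue surface varied with the 9 genes. Those of border macrophages, which live in the meninges and around vessels, had a median of 0.81 in NFKO (8 of 9 above 0) and -0.36 in DKO (0 of 9). Their sum ran from 20.1 to 39.5 CPM among controls and from 31.6 to 53.1 CPM among NFKO libraries, with none of the 9 at 0. Medians in NFKO were 0.61 for Schwann cell, 0.37 for mural cell, 0.10 for endothelial and -0.09 for choroid plexus markers, with no gene passing. The summed level of Schwann cell markers was 276 to 386 CPM in control, 510 to 559 in NFKO, 291 to 440 in AnkGKO and 245 to 418 in DKO libraries. The sum of skeletal muscle markers had no common direction within NFKO or DKO, at 71.9, 439 and 2.66 CPM in NFKO, 2.80, 180 and 3.66 CPM in DKO, 2.91 and 2.02 CPM in AnkGKO, and 29.1 to 66.5 CPM in control libraries. The part of these cell types in the results was not tested.

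Likeness to the 9 genes was measured as the correlation of each gene's log2 CPM with the mean standardized log2 CPM of the 9. It was taken over 11 libraries that differ in tissue content and depth, for 13901 other genes with a mean of at least 1 CPM. No p was computed, since genes were ranked by the value shown. The most alike were Serping1 (r = 0.990), a complement inhibitor, Pcolce (0.988), which speeds the trimming of procollagen, Islr (0.983), Itgbl1 (0.973), Nupr1 (0.970), Moxd1 (0.969), the collagen chain Col8a1 (0.968), Rcn3 (0.966), Myom2 (0.966) and Crtap (0.964), part of the collagen prolyl 3-hydroxylation complex. Spearman's rho for these 10 was 0.809 (Crtap) to 0.991 (Pcolce and Nupr1), and without the 2 libraries farthest from the median, NFKO 2 and DKO 3, r was 0.923 (Myom2) to 0.980 (Serping1). When deviations from genotype means were correlated instead, 4 of these 10 were again among the top 10.

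An r of at least 0.8 was reached by 305 genes, 2.19% of those ranked. Among the lists it was reached by 19 of 23 meningeal fibroblast markers, 6 of 6 border macrophage markers, 14 of 21 elastic fibre and adhesive genes, 5 of 8 other small leucine-rich proteoglycans, 9 of 18 fibrillar and 9 of 18 basement membrane genes, 5 of 11 insulin-like growth factor genes, 4 of 8 Schwann cell and 4 of 11 mural cell markers. It was reached by 1 of 12 endothelial and 3 of 22 collagen processing genes, and by none of 9 skeletal muscle genes (r 0.525 to 0.688), 5 bone and cartilage genes, 8 Purkinje and granule cell genes (0.0372 to 0.163) or 12 caudal Hox genes. The libraries rich in Purkinje and granule cell transcripts, control 1 and NFKO 1, stood on opposite sides of the median for 8 of the 9 genes, and for Col1a2 NFKO 1 was itself the median.

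**Figure D5:**
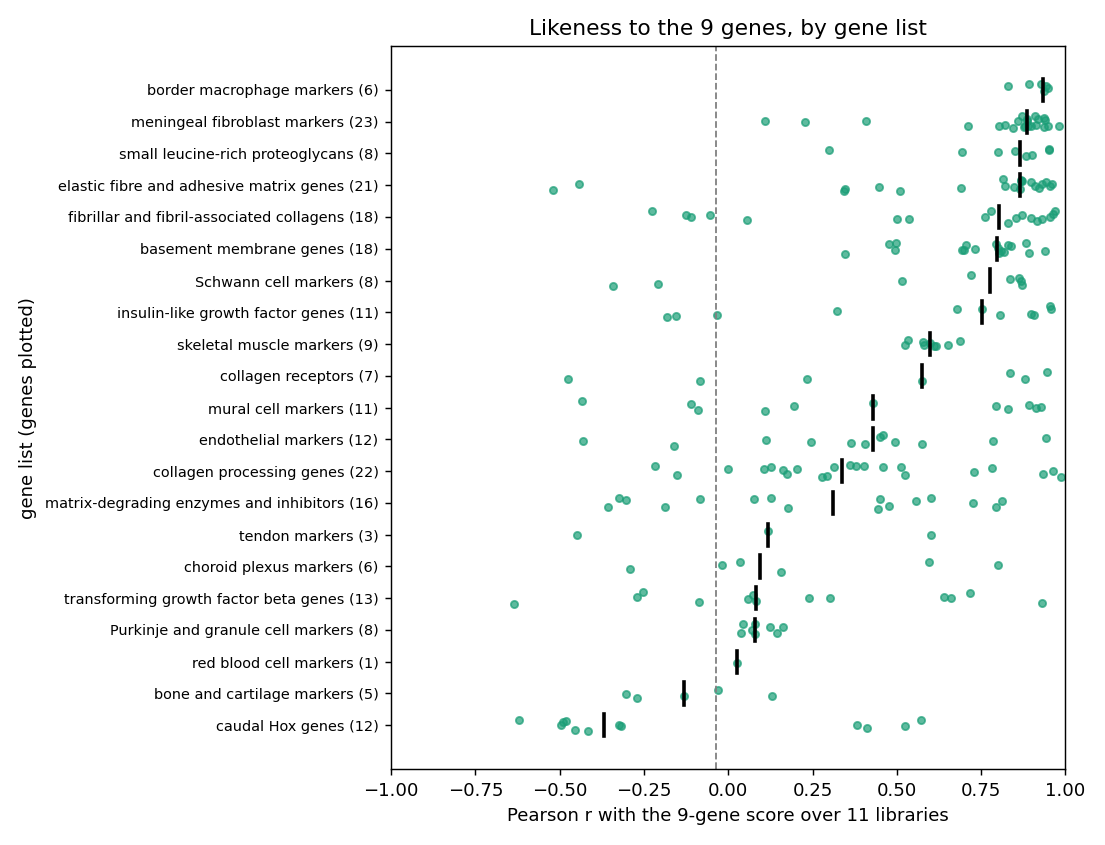
Pearson r over 11 libraries between each list gene with a mean of at least 1 CPM and the mean standardized log2 CPM of the 9 genes, with 1 point per gene. Black bars are list medians, numbers in brackets are genes plotted, and the dashed line is the median of all genes (-0.036). Border macrophage and meningeal fibroblast markers lie furthest right (medians 0.933 and 0.886).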

How the data were processed

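Processed tables of 11 libraries of polyA RNA were used. Per the labels and the study's methods, the authors trimmed reads with Trimmomatic 0.39, aligned them to GRCm39 (Ensembl annotation) with STAR 2.7.11a and counted reads per gene during mapping, while the summary lines of the table carry names used by htseq-count. The read layout differs between labels (single-end) and methods (paired-end), and the methods give another number of AnkGKO mice than the labels. The deposited counts are not normalized. The deposited normalized values (unit: signal) equal those counts divided by a size factor of 0.815 to 1.16 per library. Summary lines, 42.7 to 43.8% of each column, were left out.

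The members and lists were chosen with earlier results of these data known. Counts were fitted over all 4 genotypes with edgeR 4.0.16 (TMM, robust quasi-likelihood, R 4.3.3), keeping genes with at least 10 counts in all, with Benjamini-Hochberg adjustment over 17557 genes, and calls at an adjusted p under 0.05 with a log2 fold change of 0.6 or more in size. Log2 CPM used a prior count of 2. Levels per kilobase used the canonical transcript of GENCODE vM39, and 20526 of 22609 symbols matched it by name or synonym. DESeq2 1.42.0 with a local fit, as in the study's methods, other filters and scalings, a replicate block, Xist as a covariate, left-out libraries and an added fit without NFKO 2 and DKO 2, chosen after seeing the data, were alternatives. Fits were tested on simulated data.

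Named list genes are, per list, the 3 highest per kilobase and any that passed, besides the 10 genes most like the members. The markers named for tissue or sex (Hoxb8, Xist), S100a6, Igfbp2 and the genes called by DESeq2 alone were partly chosen after their values were seen. Replicate numbers were checked for pairing by correlating deviations from group means: control and NFKO libraries of the same number correlated (r 0.175 to 0.363), and other genotype pairs did not all exceed 0.1. The paired fit called no list gene against control, as in the unpaired fit. P-values rest on the spread between these libraries.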

Additional observations from a re-analysis of the deposited data

Results flagged for a closer look

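In 3 of the 262 list genes tested (beside 0.53% of all genes) the effect of the Nfasc deletion differed with and without Ank3, by the interaction term of edgeR's quasi-likelihood fit, and none of them is among the 9 genes. Rgs5, a pericyte gene, averaged 38.4 ± 0.606 CPM in the controls, 46.6 ± 5.65 CPM in libraries labelled NFKO, 58.3 ± 5.64 CPM in those labelled AnkGKO and 32.1 ± 3.71 CPM in the double knockout (SD), an interaction of -1.14 on the log2 scale (adjusted p = 0.00457) that lost its call with Xist as a covariate. Slc13a3, a dicarboxylate transporter of meningeal fibroblasts and other cells, was 42.5 ± 5.77, 54.1 ± 1.35, 56.5 ± 3.93 and 32.3 ± 5.41 CPM in the same order, an interaction of -1.15 (adjusted p = 0.0130) that lost its call without AnkGKO 2 (-1.09). Pdgfrb, a receptor of mural cells and fibroblasts, was 34.4 ± 3.65, 44.4 ± 3.95, 47.0 ± 0.382 and 36.6 ± 1.60 CPM, an interaction of -0.73 (adjusted p = 0.0282). Its call was lost with the replicate block (-0.74), with Xist as a covariate (-0.59), without NFKO 2 and DKO 2 together (-0.62), and with any single library but NFKO 1 left out. With 3 libraries per genotype, and 2 in AnkGKO, no group was large enough to test for outlying libraries. Libraries were left out 1 at a time instead.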

How the results depend on the processing

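Beside the main medians of the 9 log2 fold changes, leaving out 1 library at a time gave 0.62 (without NFKO 2) to 2.04 (without control 2) in NFKO against control, -1.33 to 0.27 in AnkGKO against control and -0.81 to 0.15 in DKO against control. The same gave -2.18 to -0.88 for DKO against NFKO, -0.65 (without DKO 2) to 1.32 (without AnkGKO 1) for DKO against AnkGKO, 1.10 to 3.19 for NFKO against AnkGKO, and -2.02 to -0.0044 for the interaction. Without NFKO 2 and DKO 2 together the medians were 0.62 in NFKO, -0.24 in AnkGKO and -0.81 in DKO against control. Over all alternatives, no member's estimate changed sign in NFKO against control (171 values), while 20 of 171 did in AnkGKO and 23 of 171 in DKO against control. With the replicate block the medians were 1.24, -0.34 and -0.34, and among list genes the block changed no other call than that of Pdgfrb. Over all genes the block called 55 in NFKO, 21 in AnkGKO and 4 in DKO against control, beside 64, 29 and 4 in the main fit. List genes called numbered 6, 2 and 1 in NFKO, AnkGKO and DKO with DESeq2. With only the libraries compared they were 1 (Alas2) in NFKO and 2 (Myh4 and Rgs5) in AnkGKO, and with single libraries left out 0 to 2, 0 to 1 and 0. Of the 10 genes most like the 9, 4 stayed in the top 10 when deviations from genotype means were used. The cause of these shifts was not tested. Depth limits Prg4 most, which rested on 10 and 18 counts in its lowest libraries.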
